A study of Bos taurus with 6 samples.

Results

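The genes described here are 46 interferon-stimulated and antigen processing genes of cultured bovine granulosa cells (GC), taken from a list of symbols. The list applies no threshold to measured values, but it was drawn up with earlier results of these data known, so the shares given for it are descriptions. A gene was counted as measured where the Gene Symbol of a row in the normalized array table equalled the listed symbol. This held for 43 genes, which fill 46 of the 26773 transcript clusters (the array's unit for a gene), since IFITM3, GBP4 and TAP2 have more than 1 cluster each. IFI44, IFI44L and IFITM1 had no row under these symbols and were not analysed here.

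Primary bovine GC were plated at normal or at high initial density, and RNA of 3 cultures per density was measured on whole-transcript bovine arrays (Bovine Gene 1.0 ST), 1 array per culture. All 6 cultures were kept serum-free in alpha-MEM for 9 days on collagen with FSH, IGF-1 and androstenedione, so both densities share these additions, and no interferon is named among them. According to the methods, the cells were aspirated from small to medium follicles of abattoir ovaries, frozen, and pooled over many cows whose cycle status was not defined. Which pool went into which culture is not given, so the p-values measure the spread between these cultures, which may be technical.

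Interferons are secreted proteins that tell cells of an infection. Type I interferons bind the receptor chains IFNAR1 and IFNAR2, and interferon gamma binds IFNGR1 and IFNGR2. Kinases at the type I receptor activate STAT2, which enters the nucleus with IRF9 and switches on a large set of interferon-stimulated genes. The products block virus entry, degrade or bind foreign RNA, tag proteins with ISG15, or, as RNA sensors, start new interferon production. Another branch cuts proteins into peptides in the immunoproteasome (PSMB8, PSMB9) and carries them through TAP1 and TAP2 to MHC class I molecules, of which B2M is the light chain. In cattle these genes are best known from early pregnancy, when interferon tau from the embryo raises them in the uterus and the corpus luteum.

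Values are log2 signals per culture. A gene is termed called when limma gave a fold change (FC) above 1.5 in size and an adjusted p below 0.05 over all transcript clusters. The background level of 4.62 is the 95th percentile of the 82 reporter control rows of the table. Where a group lay at or below it on all arrays, a fold is given as a lower bound from that level, and where both groups did so, or where the bound came out below 1, no fold is given. Precision is limited by the number of arrays, and 3 cultures against 3 cannot reach a p below 0.1 when their labels are permuted exactly.

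As a check of the cell type, 13 of 13 granulosa markers were above background in at least 1 normal density culture and 12 of 13 at high density, where CYP19A1 was not. Their mean signal was between 8.51 and 8.67 in the normal density cultures and between 7.64 and 7.72 at high density. Not 1 of 23 leukocyte markers, PTPRC, CD14 and CD68 among them, was above background in any culture, and their mean signal was between 3.00 and 3.05 at normal and between 3.00 and 3.16 at high density. Of 10 endothelial markers VWF and EGFL7 were above background, and none was called. Of 7 theca and stroma markers 6 were above background and 3 rose (INSL3, COL1A1 and ACTA2), with a list mean of 7.01 to 7.12 at normal and 7.73 to 7.84 at high density, while the theca enzyme CYP17A1 was below background in all cultures. The part of this shift in the results that follow was not tested. In bulk RNA, fewer cells of a type and less RNA per cell cannot be told apart.

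At high density, 12 of the 43 measured genes were called. Of these 10 fell, which is 23.3% of the measured genes against 3.51% of all transcript clusters. OAS1Y, IFI27, DDX58, HERC6, MX1, IRF1, IFI6, PARP14, PARP9 and HERC5 make up this group. Only IFITM3 and IFIT1 rose, 4.65% of the measured genes against 3.97% of all transcript clusters. In either direction the share was 27.9%, against 7.49% of all transcript clusters. With the adjusted p alone and no FC threshold, 20 genes passed (19.1% of all transcript clusters did), of which 17 were lower (background 10.4%) and 3 higher (background 8.64%). The cultures of the 2 densities did not overlap for 25 of the 43 genes, where the share over all transcript clusters was 37.3%. The median log2 difference of the 43 genes was −0.03, beside 0.02 over all transcript clusters, and 19 of them had both group means at or below background.

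**Figure D1:**
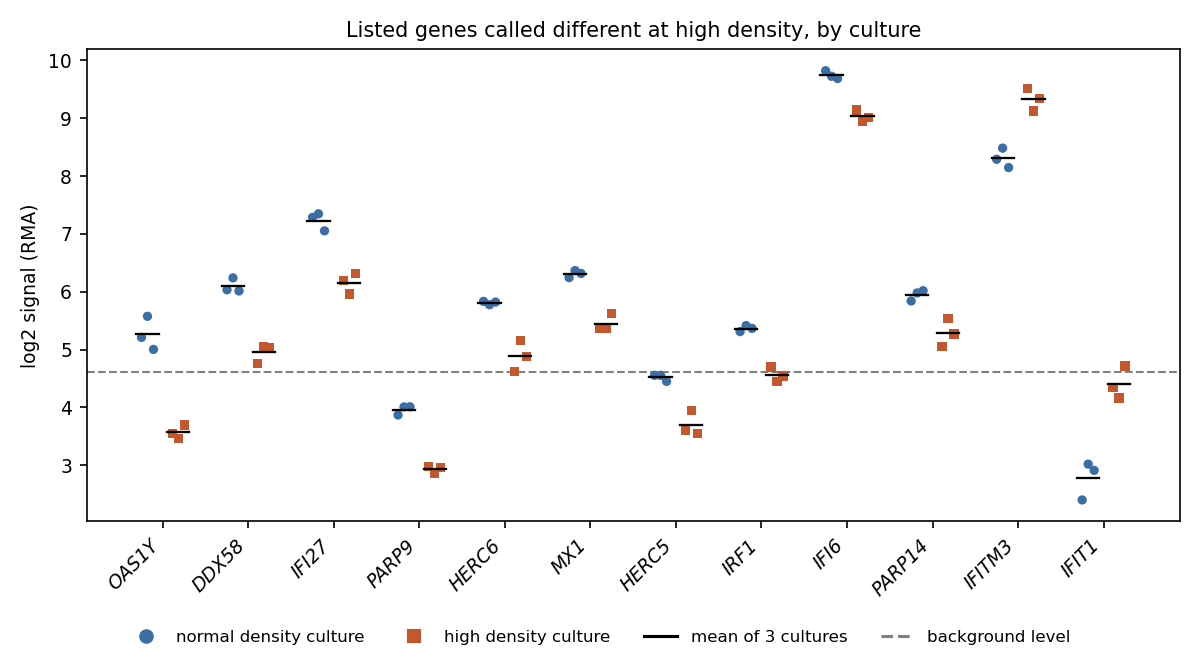
Log2 signal of each culture for the 12 called genes, ordered by the difference between densities. Circles are the 3 normal density cultures, squares the 3 high density cultures, short lines the group means and the dashed line the background level of 4.62. In each gene the cultures of the densities lie apart, with PARP9 and HERC5 below the dashed line in all 6 cultures.

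None of the 4 receptor chains, the first step of signaling, was called, beside 7.49% of all transcript clusters. With so few genes, no call is near that share. IFNAR1 had signals of 8.03, 8.0 and 8.08 in the normal density cultures and of 7.55, 7.94 and 7.67 at high density. The high density cultures were all below the normal ones, the second of them by very little, and the log2 difference was −0.31 (limma's adjusted p = 0.0831, standard error 0.11). IFNAR2, the other chain of the type I receptor, had 7.24, 7.41 and 7.43 at normal and 6.99, 7.09 and 7.08 at high density. Here the adjusted p from limma was 0.0358, with a log2 difference of −0.31 (standard error 0.08) that is below the FC threshold.

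The interferon gamma receptor chains had differences of the other sign. IFNGR1, the ligand-binding chain, was measured at 7.42, 7.49 and 7.56 in the normal density cultures and at 7.62, 7.85 and 7.72 in the high density cultures. These did not overlap, but the log2 difference of 0.24 (limma's adjusted p = 0.0913, standard error 0.08) passed neither threshold. For IFNGR2, its partner, the 2 densities overlapped, with 8.40, 8.43 and 8.58 against 8.61, 8.73 and 8.57, and the log2 difference was 0.17 (limma's adjusted p = 0.218, standard error 0.08). All 4 chains were above background in every culture, and whether the type I and the gamma receptor chains differ in their response was not tested.

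Of the transcription factors, IRF1 fell. IRF1 is induced by interferon gamma and is known as an activator of interferon-stimulated genes. Its signals were 5.31, 5.42 and 5.37 at normal density and 4.70, 4.45 and 4.54 at high density. This is 1.74-fold lower, from 5.36 ± 0.05 to 4.56 ± 0.13 (SD, n = 3), with a log2 difference of −0.80 (limma's adjusted p = 7.95e-04, standard error 0.08). Only 1 of the high density cultures was above background.

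STAT2 and IRF9, which work in the same DNA-binding complex, were both lower by less than the FC threshold. STAT2 had 7.45, 7.54 and 7.47 at normal and 7.13, 7.0 and 7.14 at high density, a log2 difference of −0.40 (limma's adjusted p = 0.00843, standard error 0.07). IRF9 went from 5.12, 5.06 and 5.10 to 4.79, 4.73 and 4.73, a log2 difference of −0.35 (limma's adjusted p = 0.00994, standard error 0.06). In both genes the cultures of a density lay close together and apart from those of the other density. IRF7, the factor that amplifies type I interferon production, was below background in all cultures, with 4.21, 4.03 and 4.20 at normal and 4.24, 3.85 and 4.27 at high density, and the densities overlapped.

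**Figure D2:**
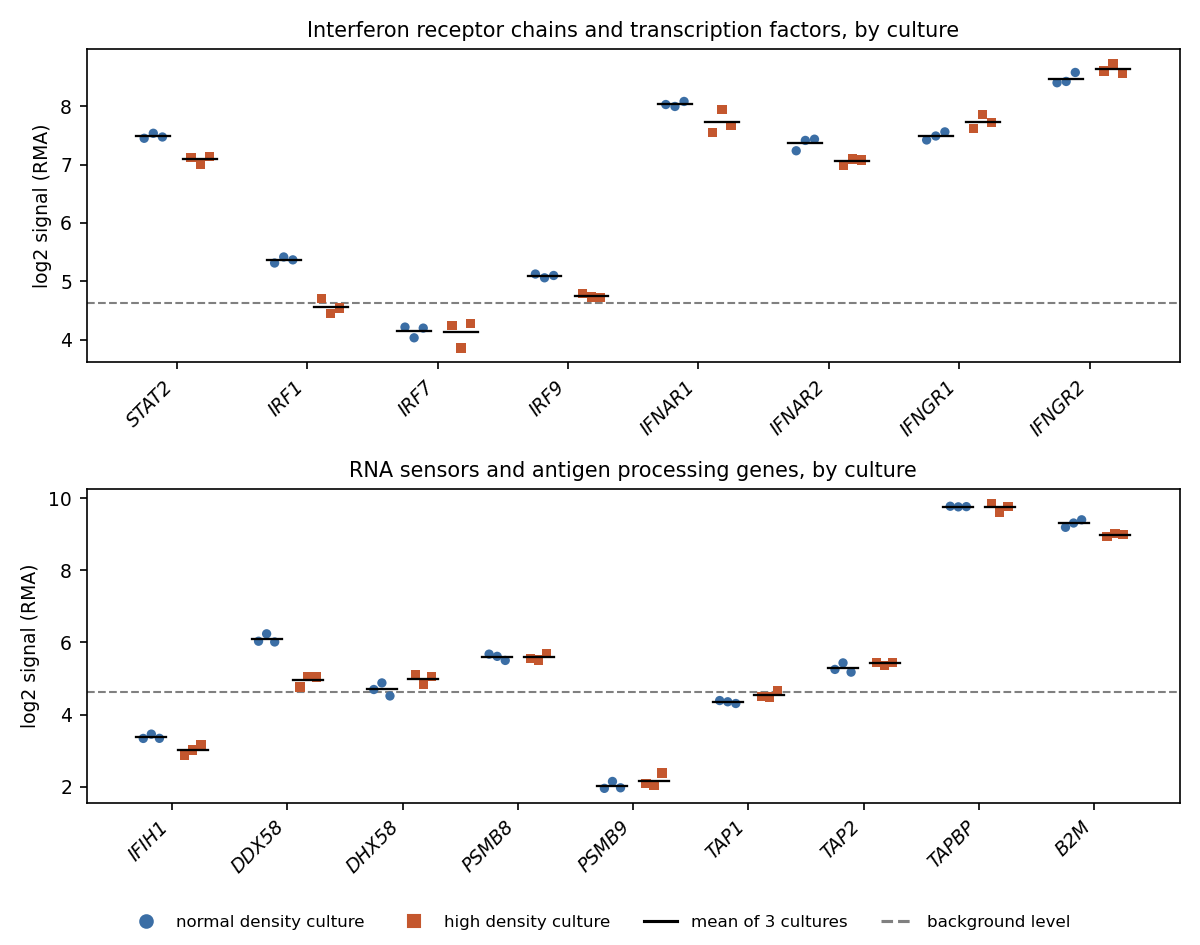
Log2 signal of each culture for the transcription factors and receptor chains (upper panel) and for the RNA sensors and antigen processing genes (lower panel). Circles are normal density and squares high density cultures, short lines are means of 3 and the dashed line is the background level of 4.62. IRF1 and DDX58 show the widest gaps between densities, while PSMB8, TAP2 and TAPBP overlap.

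Among the sensors of foreign RNA, DDX58 (RIG-I) fell. Its signals were 6.03, 6.24 and 6.01 in the normal density cultures and 4.76, 5.06 and 5.04 at high density. All 6 lay above background, and the mean was 2.21-fold lower, from 6.10 ± 0.13 to 4.95 ± 0.17 (SD, n = 3; log2 difference −1.14, limma's adjusted p = 4.93e-04, standard error 0.11). DDX58 was called under each of the 20 alternative settings. IFIH1 (MDA5), which senses long double-stranded RNA, was below background throughout, at 3.38 ± 0.07 and 3.03 ± 0.15 (SD, n = 3). DHX58 (LGP2), a regulator of both, had 4.70, 4.88 and 4.52 at normal and 5.11, 4.83 and 5.06 at high density, and the densities overlapped (limma's adjusted p = 0.119).

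Of the 26 measured effectors 8 fell and 2 rose, and 16 were not called. The shares are 30.8% lower and 7.69% higher, beside 3.51% and 3.97% of all transcript clusters. OAS1Y, an oligoadenylate synthetase whose product activates RNase L, had signals of 5.21, 5.58 and 5.0 at normal density and of 3.55, 3.46 and 3.70 at high density. All high density cultures were below background, so the fall from 5.26 ± 0.29 to 3.57 ± 0.12 (SD, n = 3) was at least 1.56-fold (limma's adjusted p = 3.32e-04). OAS2, the gene next to OAS1Y in the RefSeq gene order of the assembly ARS-UCD2.0, was below background in all cultures, at 2.16 ± 0.09 and 2.17 ± 0.03.

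MX1, a dynamin-like GTPase that traps viral particles, had 6.24, 6.37 and 6.32 at normal and 5.36, 5.37 and 5.62 at high density. It was thus 1.81-fold lower, with a log2 difference of −0.86 (limma's adjusted p = 8.28e-04, standard error 0.09) and every culture above background. The neighbouring MX2 stayed below background, at 3.22 ± 0.06 and 3.19 ± 0.04 (SD, n = 3).

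IFI6 and IFI27 are small hydrophobic membrane proteins of a shared family. IFI6 had 9.82, 9.72 and 9.69 at normal density and 9.14, 8.94 and 9.01 at high density. It was 1.64-fold lower (log2 difference −0.71, limma's adjusted p = 0.00108, standard error 0.08). IFI27 was measured at 7.29, 7.35 and 7.05 in normal and at 6.20, 5.96 and 6.31 in high density cultures. Its mean was 2.10-fold lower, with a log2 difference of −1.07 (limma's adjusted p = 9.57e-04, standard error 0.12). ISG12(B), which belongs to the same family and is the next gene to IFI27 in the RefSeq order, went the opposite way. It had 5.65, 5.82 and 5.64 at normal and 6.44, 6.40 and 6.70 at high density, a 1.76-fold rise (log2 difference 0.81, limma's adjusted p = 0.00162, standard error 0.10). For these 3 genes all cultures were above background and the densities did not overlap.

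HERC6 and HERC5 are neighbouring genes for ligases of the type that attaches ISG15 to proteins. HERC6 had 5.83, 5.78 and 5.82 at normal density and 4.62, 5.15 and 4.88 at high density. The normal density cultures were nearly equal while those at high density were spread, and the mean was 1.90-fold lower (log2 difference −0.92, limma's adjusted p = 0.00276, standard error 0.13). HERC5 was called (limma's adjusted p = 0.0026) with signals that were below background in all cultures, 4.56, 4.56 and 4.45 at normal and 3.61, 3.95 and 3.54 at high density. ISG15, the ubiquitin-like tag itself, was below background in all 6 cultures, at 3.86, 3.55 and 3.72 against 3.45, 3.53 and 3.71, and the densities overlapped. USP18, which removes the tag, had 6.18 ± 0.19 and 5.91 ± 0.08 (SD, n = 3) and was not called (limma's adjusted p = 0.126).

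PARP9, DTX3L and PARP14 follow each other on the chromosome in the RefSeq order. PARP9 and PARP14 transfer ADP-ribose or bind it, and DTX3L is the ubiquitin ligase that pairs with PARP9. PARP14 had signals of 5.84, 5.98 and 6.02 at normal and of 5.05, 5.54 and 5.27 at high density. It was 1.58-fold lower (log2 difference −0.66, limma's adjusted p = 0.0113, standard error 0.13), but was not called without high density replicate 1, where the log2 difference was −0.54, nor by the methods' t-test. DTX3L fell from 6.17, 6.19 and 6.10 to 5.09, 5.07 and 4.92, which is 2.18-fold (log2 difference −1.12, limma's adjusted p = 1.14e-04, standard error 0.08). PARP9 was called (limma's adjusted p = 1.66e-04), although its signals of 3.87, 4.01 and 4.01 at normal and 2.98, 2.86 and 2.96 at high density were all below background.

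IFITM3, a membrane protein that hinders viruses from fusing with the cell, rose. Its signals were 8.29, 8.48 and 8.15 at normal density and 9.52, 9.12 and 9.34 at high density. This was a 2.03-fold increase (log2 difference 1.02, limma's adjusted p = 0.00158, standard error 0.13). The transcript cluster behind these values is the one with the higher signal, and its accession matches the RefSeq gene LOC777594. The other IFITM3 cluster was below background, at 4.27 ± 0.11 and 4.23 ± 0.23 (SD, n = 3), and with the mean of both the log2 difference was 0.49 and the call was lost. IFITM genes have similar sequences, so signal from a family member cannot be told apart from that of IFITM3 here.

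IFIT1, which binds the ends of foreign RNA, had signals of 2.40, 3.02 and 2.91 at normal and of 4.34, 4.16 and 4.72 at high density. It was called as higher (limma's adjusted p = 0.00135), but only 1 of the 6 cultures was above background. IFIT2 and IFIT3, from the same family, were below background in every culture and were not called. IFIT5, by contrast, was above background in all cultures, with 8.85, 8.91 and 8.88 against 8.79, 8.86 and 8.73, and the densities overlapped (log2 difference −0.09, limma's adjusted p = 0.441, standard error 0.07).

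EIF2AK2 (PKR), the kinase that stops translation on double-stranded RNA, had 7.74, 7.65 and 7.76 at normal density and 7.01, 7.47 and 7.12 at high density. All high density cultures lay below the normal ones, with the second of them nearest. The log2 difference of −0.52 (limma's adjusted p = 0.0263, standard error 0.12) was short of the FC threshold, and without high density replicate 2 it was −0.66 and called. BST2 (tetherin), which holds budding virus at the membrane, had 7.01 ± 0.08 and 7.03 ± 0.07 (SD, n = 3), with overlapping densities. The other effectors, namely ISG20, RSAD2, XAF1, IFI35, GBP2, GBP4 and GBP5, were below background in every culture. Of these ISG20 had an adjusted p of 0.0267 and IFI35 an adjusted p of 0.0241 from limma, with group means of 3.73 and 4.11 for ISG20 and of 4.35 and 4.01 for IFI35 at normal and high density.

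**Figure D3:**
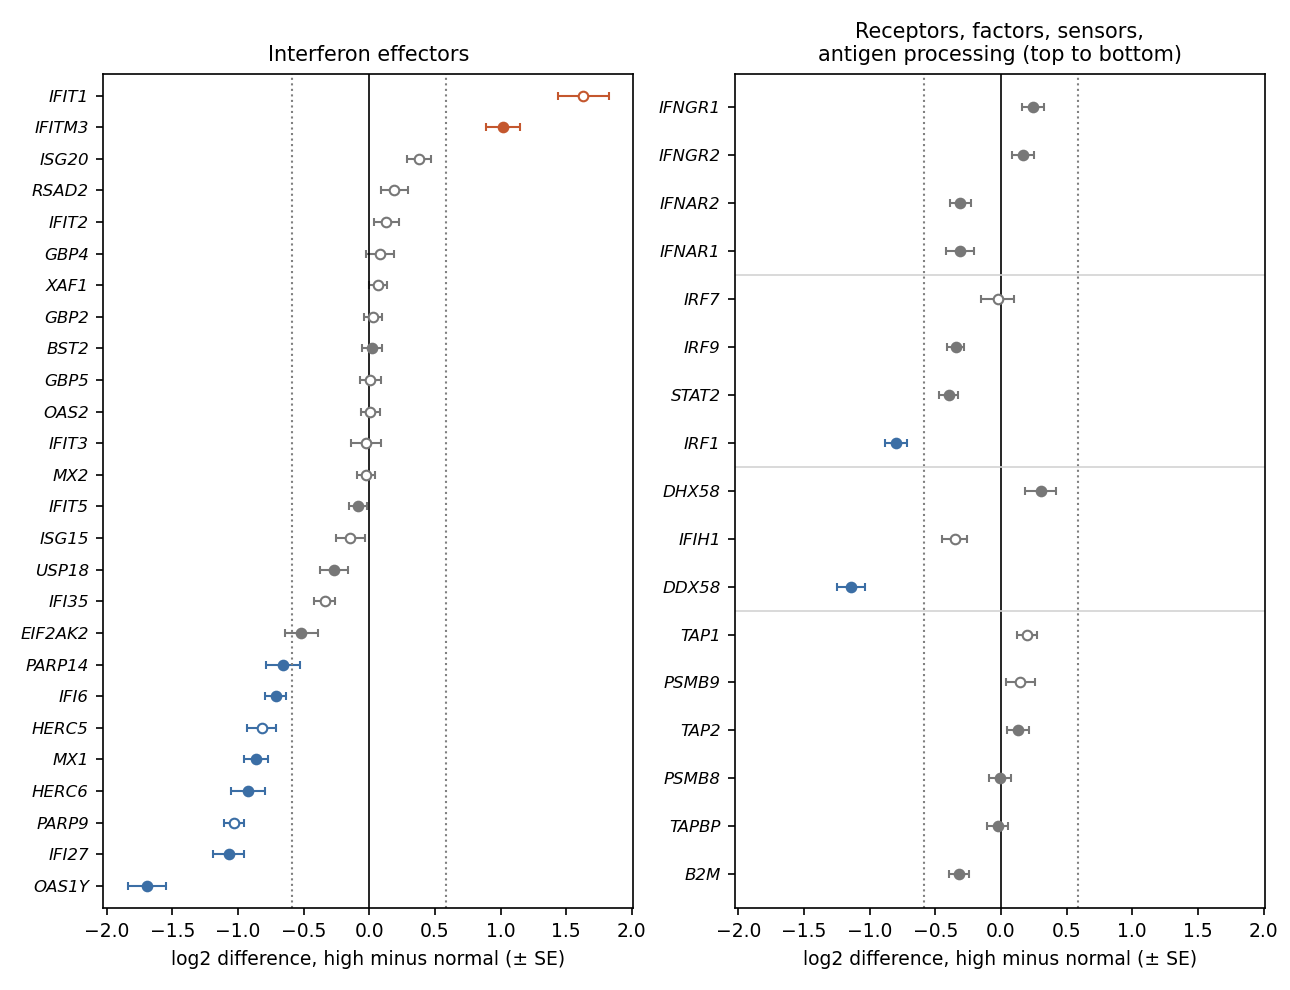
Log2 difference between high and normal density, with its standard error from limma, for the 43 measured genes. Blue points were called lower and orange points called higher, grey points were not called, open points have both group means at or below background, and dotted lines mark the FC threshold of 1.5. The called genes are effectors, DDX58 and IRF1, and no receptor chain or antigen processing gene lies beyond the dotted lines.

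None of the 6 antigen processing genes was called, beside 7.49% of all transcript clusters. With so few genes, no call is near that share. The immunoproteasome subunit PSMB8 had signals of 5.68, 5.62 and 5.50 at normal and of 5.55, 5.51 and 5.70 at high density. These overlapped, and the log2 difference was −0.01 (limma's adjusted p = 0.949, standard error 0.08). PSMB9 was below background in all cultures, at 2.02 ± 0.11 and 2.17 ± 0.19 (SD, n = 3).

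For the peptide transporter, TAP1 had 4.39, 4.36 and 4.31 at normal and 4.50, 4.49 and 4.66 at high density, with 1 culture above background (limma's adjusted p = 0.12). TAP2 is measured by 2 transcript clusters whose differences had opposite signs, 0.13 (standard error 0.09) and −0.09 (standard error 0.09) on the log2 scale, and neither was called. TAPBP (tapasin), which loads peptides onto MHC class I, had 9.78, 9.76 and 9.77 against 9.85, 9.61 and 9.78, so the densities overlapped. B2M alone among these passed the adjusted p threshold. Its signals were 9.19, 9.31 and 9.40 at normal and 8.94, 9.02 and 8.99 at high density, which did not overlap, with a log2 difference of −0.32 (limma's adjusted p = 0.028, standard error 0.08) below the FC threshold.

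Beyond the list, 121 of 138 other genes of the same pathways had a row. Of these 7 rose and 12 fell, which is 5.79% and 9.92%, beside 3.97% and 3.51% of all transcript clusters. Their median log2 difference was −0.01. Not 1 of the 6 interferon genes measured was above background in any culture, with group means of IFNB1 at 2.0 and 2.21, IFNK at 1.69 and 1.97 and IFNG at 1.82 and 1.91, chosen for display after their values were seen. None of 10 genes for Janus kinases, STATs and their inhibitors was called, beside 7.49% of all transcript clusters. Among 16 genes of nucleic acid sensing, 2 fell (12.5%, beside 3.51% of all transcript clusters) and 0 rose. Of the 2 that fell, 1 had both group means at or below background. TLR3, the endosomal receptor for double-stranded RNA, had 6.59, 6.74 and 6.69 at normal and 5.49, 5.93 and 5.78 at high density, a 1.92-fold fall (log2 difference −0.94, limma's adjusted p = 0.00174, standard error 0.12).

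Of 46 other genes listed as interferon-induced 5 rose (10.9%) and 7 fell (15.2%), beside 3.97% and 3.51% of all transcript clusters. The largest rise was that of IFI30, a lysosomal reductase that opens disulfide bonds of antigens, from 7.02, 7.05 and 6.91 to 8.48, 8.39 and 8.69. It was 2.88-fold (log2 difference 1.53, limma's adjusted p = 8.84e-05, standard error 0.10) and called under each of the 20 alternative settings. IFITM5, of the same family as IFITM3, went from 4.53, 4.67 and 4.43 to 6.26, 5.76 and 5.90, with 1 of the normal density cultures above background (log2 difference 1.43, limma's adjusted p = 5.32e-04, standard error 0.14). Whether interferon induces IFITM5 in these cells was not tested. CMPK2, a mitochondrial nucleotide kinase, had 5.12, 5.31 and 5.02 against 6.24, 6.38 and 6.39, a 2.28-fold rise (limma's adjusted p = 2.22e-04). Its neighbour RSAD2 (viperin) stayed below background, at 3.53 ± 0.10 and 3.72 ± 0.17 (SD, n = 3). SAMD9 also rose, by at least 1.47-fold from a normal density signal below background.

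On the falling side, the RNF213 cluster used here was matched to the RefSeq gene LOC509283. RNF213, a large ubiquitin ligase, had 7.70, 7.54 and 7.55 at normal and 6.53, 6.77 and 6.58 at high density. It was 1.97-fold lower (limma's adjusted p = 4.52e-04), while its other transcript cluster, at 2.14 and 2.20, was below background, and with the mean of both the log2 difference was −0.46 and not called. SAMHD1, which breaks down nucleotides needed for virus replication, was 1.72-fold lower, from 6.79 ± 0.10 to 6.01 ± 0.15 (SD, n = 3; limma's adjusted p = 0.00184). TRIM21, a cytosolic antibody receptor, was 1.61-fold lower, from 5.42 ± 0.05 to 4.73 ± 0.09 (SD, n = 3; limma's adjusted p = 8.76e-04). SP140 was called lower with all cultures below background.

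**Figure D4:**
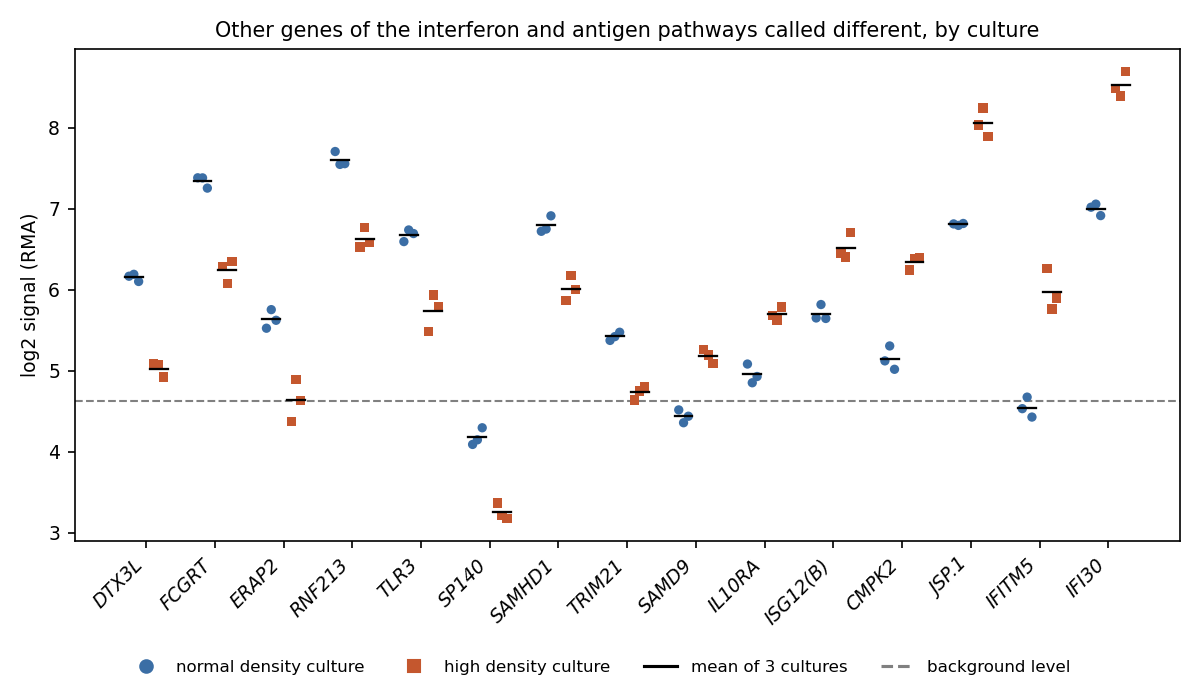
Log2 signal of each culture for the 15 other pathway genes with the largest called differences. Circles are normal density and squares high density cultures, short lines are means of 3 and the dashed line is the background level of 4.62. IFI30, JSP.1 and CMPK2 rose and DTX3L, FCGRT and RNF213 fell with every culture of a density apart from those of the other.

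In antigen presentation 1 of 26 other genes rose (3.85%) and 3 fell (11.5%), beside 3.97% and 3.51% of all transcript clusters. JSP.1, a bovine MHC class I heavy chain, had 6.81, 6.79 and 6.82 at normal and 8.03, 8.24 and 7.89 at high density, a 2.37-fold rise (log2 difference 1.25, limma's adjusted p = 2.14e-04, standard error 0.10). FCGRT, the heavy chain of the neonatal Fc receptor and a partner of B2M, had 7.38, 7.38 and 7.25 against 6.29, 6.07 and 6.35, a 2.14-fold fall (limma's adjusted p = 2.96e-04). ERAP2, which trims peptides in the endoplasmic reticulum, was 2.0-fold lower, with 5.52, 5.75 and 5.62 against 4.37, 4.89 and 4.63 (limma's adjusted p = 0.00233). Only 2 of the high density cultures were above background for ERAP2.

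The symbol BOLA, for MHC class I genes, has 3 transcript clusters that disagree, a point chosen after their values were seen. The cluster with the highest signal had 8.52 ± 0.09 and 8.14 ± 0.13 (SD, n = 3) and was not called, while another rose from 5.36, 5.28 and 4.98 to 7.47, 7.15 and 7.04 (log2 difference 2.02, limma's adjusted p = 1.40e-04, standard error 0.14). MHC class I genes are near-identical copies, so these clusters and JSP.1 are uncertain as measures of single genes. Outside these groups IL10RA, the interleukin-10 receptor chain, rose 1.67-fold, from 4.95 ± 0.12 to 5.70 ± 0.08 (SD, n = 3; limma's adjusted p = 0.00119).

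Across the list the spread was larger at high than at normal density, with a median SD of 0.12 against 0.09 over the 43 genes and 0.13 against 0.08 over all transcript clusters. High density replicate 2 was the culture nearest to the normal density mean in 4 of the 10 genes that fell, and over all transcript clusters called lower this share was 59.6%. Without this culture 11 listed genes were called lower and 2 higher.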

How the data were processed

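Array signals of 6 GC cultures, 3 per plating density, were analysed. The authors made the deposited log2 signals from the scanned Bovine Gene 1.0 ST Arrays in Affymetrix Expression Console with the RMA procedure (background reduction, normalization between arrays and a summary per transcript cluster), and the submitters' processing notes also name Transcriptome Analysis Console 3.0. RMA gives no detection call and compresses low signals, so a background level was set from the 82 reporter control rows. The genome build of the array's annotation is not given in the sources used here, and no coordinates are printed. Gene order is that of RefSeq for ARS-UCD2.0, in which 40 of 43 measured genes were matched.

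No further normalization was applied. Group differences were tested across all 26773 transcript clusters with limma 3.58.1 in R 4.3.3 (lmFit, eBayes, no covariates), Benjamini-Hochberg adjusted, at the thresholds of the methods (FC above 1.5, p and FDR below 0.05). Of several transcript clusters of a symbol, the one with the highest mean signal was used. All members are accounted for, and called members, receptor chains and transcription factors are given by culture. Of the other pathway genes, the 15 largest called differences are named. The members and lists were chosen with earlier results of these data known. The scripts were tested on simulated data. Alternatives were the methods' t-test, its Welch version, other variance priors, array weights, a replicate block, other scalings, filters and thresholds, and leaving out each culture. No promoter or protein sequences were used here. The result of 1 other pathway gene is not reported here. Figures were drawn with matplotlib 3.10.9.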

Additional observations from a re-analysis of the deposited data

How the results depend on the processing

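Over 20 alternative settings no called gene changed direction, and DDX58 was called in all 20, PARP9 in the 19 that tested it. With the Welch t-test, 0 listed genes were called higher and 4 lower, 4 and 6 of the other pathway genes, and all transcript clusters called numbered 838. With limma's test against the FC threshold itself (treat) these were 1 and 3, 4 and 2, and 529. With no FC threshold 17 listed genes were lower, 11 other pathway genes higher and 31 lower, and 5106 transcript clusters passed. When only transcript clusters above background were tested, or the mean over the clusters of a symbol was used, 1 listed gene was called higher. With each culture left out in turn, 2 listed genes were called higher in each case and 9 to 11 lower, 7 and 9 to 12 of the other pathway genes, and 1848 to 2434 of all transcript clusters, the last without high density replicate 2, against 2005 with all cultures. Of the genes not called, MX2, OAS2, IFIT3, BST2, GBP2, GBP4, GBP5, IRF7, PSMB8 and TAPBP changed sign in some setting. With the replicate block, 2 listed genes were called higher and 10 lower, and 7 and 12 of the other pathway genes. Same-numbered cultures did not deviate together (correlations of 0.0459, −0.0457 and −0.0406). The labels do not say whether a number marks a shared pool of cells, and these correlations cannot decide it. The number of genes above background was 24, 29 with the 90th percentile of the control rows and 27 with the median signal of the table. Signals near background limit the folds of the 19 genes with both group means at or below it. They also limit that of OAS1Y, which is given as a lower bound. A search of promoter motifs was planned and not run.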
